A study of Mus musculus with 4 samples.

Results

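The somite and myogenic regulators described here are 10 transcription factor genes, *Tcf15*, *Meox1*, *Pax3*, *Pax7*, *Pax1*, *Pax9*, *Myod1*, *Myf5*, *Myf6* and *Myog*. They were taken as every probe whose symbol in the platform annotation was one of these names, which gave 10 probes, 1 per gene, of 22702 on the array. RNA from dissected tissue of mouse embryos of both sexes at 10.5 dpc (days post coitum) was hybridised on 4 two-colour long-oligonucleotide arrays, each carrying metanephric mesenchyme (MM), from which the nephrons of the permanent kidney form, and intermediate mesoderm (IM), the mesoderm strip beside the somites that gives rise to kidney and gonad. MM was channel 1 and IM channel 2 on arrays 1 and 2, and the channels were exchanged on arrays 3 and 4, whose labels cross the tissue nouns (mesenchyme and mesoderm) and were read as the same tissues. No genotype or treatment is named, neither strain nor pooling of embryos is stated, and the arrays may share RNA extracts, in which case the p-values reflect technical spread. Values are log2 ratios of MM over IM, so a negative value is lower in MM. This direction is likely from the titles and channels but not settled by them, because the dye of each channel is not given.

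Somites are blocks of paraxial mesoderm that lie beside the neural tube and next to the intermediate mesoderm. Each forms as an epithelial ball and then divides into sclerotome, the source of vertebrae and ribs, and dermomyotome, which yields the muscle precursors of the myotome and limbs. Tcf15 and Meox1 act in epithelial somites, Pax3 and Pax7 mark the dermomyotome, Pax1 and Pax9 the sclerotome, and the 4 myogenic basic helix-loop-helix (bHLH) factors commit precursors to skeletal muscle and drive their differentiation. None of these genes defines kidney mesenchyme, and their ratios here are read from whole dissected tissue, in which fewer cells of a type and less RNA per cell cannot be told apart.

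No member was called higher in MM, and the epithelial somite genes *Tcf15* (1.94-fold) and *Meox1* (1.40-fold) were lower in MM with and without a term for channel orientation. Of the 10 members, 6 had a value on all 4 arrays and were tested, and 5 of these had no value at the floor, the lowest ratio in the deposited table (0.01, log2 -6.64), which is a limit and not a measured fold. In limma with a term for channel orientation, 5 of 6 tested members were lower in MM and 0 higher at an adjusted p threshold of 0.05, the fifth being *Myod1*, whose call rests on the floor. Calls of this kind were common, at 61.9% of all 14184 tested probes, 38.1% lower and 23.8% higher. In both fits, that is with and without the orientation term, 2 of 6 were lower, against 14.4% of all tested probes lower and 28.0% called in either direction. All 3968 probes called without the term were also called with it, so a call in both fits is a call without the term. The 5 members above the floor on every array were negative on all 4 arrays, as were 30% of the 13191 such probes. Their median was -0.487 against -0.053 for those probes. On arrays 1 and 2 all 10 members had a value. There *Pax9* (1.89 and 1.10), *Myf5* (0.57 and 0.47) and *Myf6* (0.45 and 0.15) were positive. *Myod1* (1.00 and -0.23) differed in sign, and *Pax7* (-0.40 and -0.34) was negative like the 5.

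**Figure D1:**
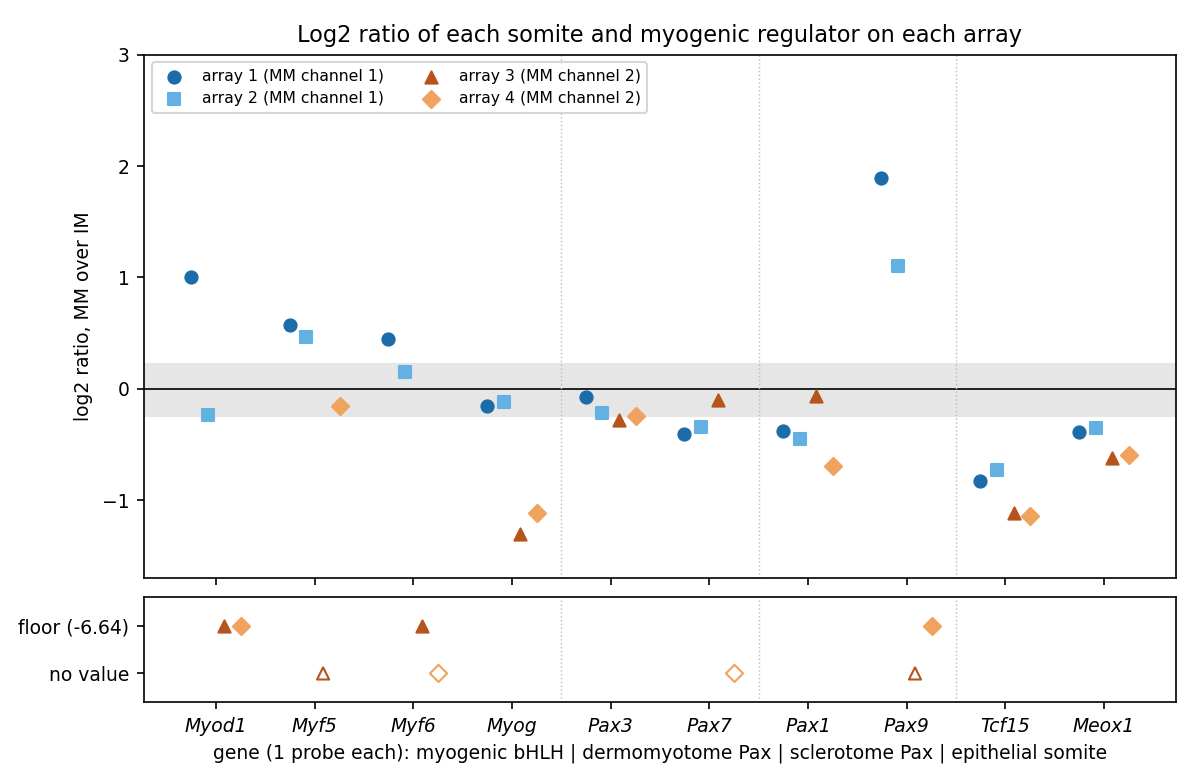
Log2 ratio of MM over IM (vertical axis) for each of the 10 genes (horizontal axis, 1 probe each) on arrays 1 to 4, with values at the floor and missing values in the lower panel and the middle 50% of probes above the floor shaded. Tcf15 and Meox1 lie below the shaded band on every array, Myog does so on arrays 3 and 4, and all floor and missing values of these genes are on arrays 3 and 4.

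*Tcf15* (paraxis), a bHLH factor needed for somites to become epithelial, read -0.83 on array 1, -0.73 on array 2, -1.11 on array 3 and -1.14 on array 4. All 4 arrays were low, and the ratio was more negative on arrays 3 and 4 than on arrays 1 and 2. The mean was -0.95 ± 0.21 (SD, n = 4 arrays), 1.94-fold lower in MM, with a limma adjusted p of 0.000774 (95% interval -1.05 to -0.86) and 0.00747 without the orientation term. Of all tested probes, which include probes with floor values, 8.01% had a mean as low or lower. Among the 13191 probes above the floor the 5th percentile was -0.61, so *Tcf15* lay below it. With the arrays quantile normalized its value was -1.63 and it was not called (adjusted p = 0.0867). Quantile normalization replaces each value by the mean over arrays at its rank. Floor values, nearly all on arrays 3 and 4, thus enter the low end of every array in that setting.

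*Meox1*, a homeobox factor of the epithelial somite and later sclerotome, read -0.39 on array 1, -0.35 on array 2, -0.62 on array 3 and -0.59 on array 4. The 4 values were again all negative, in the same order between orientations as those of *Tcf15*. The mean of -0.49 ± 0.14 (SD, n = 4) was 1.40-fold lower in MM, with a limma adjusted p of 0.00156 and 0.0162 without the orientation term. Of all tested probes, 14.6% had a mean as low or lower. Unlike *Tcf15*, *Meox1* lay above the 5th percentile of probes above the floor (-0.61). *Tcf15* and *Meox1* were the members called in both fits. Each also passed within arrays 1 and 2 alone (adjusted p = 0.0278 for *Tcf15* and 0.0371 for *Meox1*) and within arrays 3 and 4 alone (adjusted p = 0.00825 and 0.014). Such calls were common, at 5614 and 7701 of the 14184 tested probes. Each pair holds 1 orientation, so tissue and channel cannot be told apart within it.

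The probes most like these over the 4 arrays, by Euclidean distance of the log2 ratios among 10868 named probes above the floor, were *Selenbp2* (distance 0.074), *1110029L17Rik* (0.0767) and *2410085M17Rik* (0.0899) for *Tcf15*. For *Meox1* they were *Cd48* (0.0481), *Slc4a1ap* (0.0487) and *Socs7* (0.0518). No other member was among them.

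*Pax3*, the paired-box factor of dermomyotome, dorsal neural tube and neural crest, read -0.07 on array 1, -0.22 on array 2, -0.28 on array 3 and -0.24 on array 4. The difference was small, 1.15-fold lower in MM (-0.20 ± 0.09, SD, n = 4), and its mean stood at the 34.3 percentile of the tested probes. It passed with the orientation term (limma adjusted p = 0.0214) and not without it (adjusted p = 0.0702), nor without array 3 (adjusted p = 0.106) or array 4 (adjusted p = 0.0928).

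*Pax7*, the related factor that later marks muscle stem cells, read -0.40 and -0.34 on arrays 1 and 2 and -0.10 on array 3, with no value on array 4. The 3 readings were negative, with a mean of -0.28 ± 0.16 (SD, n = 3), and the probe was not tested with the others. In a fit of probes with 3 or more values it had an adjusted p of 0.0545 in limma, with a 95% interval of -0.42 to -0.05. Where *Pax3* was less negative on arrays 1 and 2, *Pax7* was less negative on array 3. The orientation term did not pass for *Pax3* (limma adjusted p = 0.28), and *Pax7* had 1 value in the second orientation, so no difference between the genes is shown.

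*Pax1*, which the sclerotome uses with *Pax9* to build the vertebral column, read -0.38 on array 1, -0.45 on array 2, -0.06 on array 3 and -0.69 on array 4. Arrays 3 and 4 spanned a wider range than arrays 1 and 2, unlike for *Tcf15* and *Meox1*. The mean of -0.40 ± 0.26 (SD, n = 4) did not pass in limma (adjusted p = 0.0677, 95% interval -0.78 to -0.02), and without the orientation term its adjusted p was 0.0848. It passed without array 3, at -0.55 (adjusted p = 0.0231). On the first 2 arrays alone it also passed (adjusted p = 0.0368), and it read -0.24 without array 4 (adjusted p = 0.0543).

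*Pax9* read 1.89 and 1.10 on arrays 1 and 2, the highest readings of any member, had no value on array 3 and stood at the floor on array 4. The orientations thus opposed each other, with MM higher on arrays 1 and 2 and a ratio at its limit in the other direction on array 4. In the fit of probes with 3 or more values *Pax9* was called lower (limma adjusted p = 0.0184), a call that rests on the floor value and gives no fold. The sclerotome pair therefore did not share a direction on arrays 1 and 2, where both *Pax1* values were negative.

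The myogenic factors differed in how completely they were measured. Myf5 is the first of them to be switched on in the mouse somite, Myod1 acts beside it in commitment, and Myog drives the fusion and differentiation of committed cells. These factors bind E-boxes, short motifs of the form CANNTG, and the *Myog* promoter is a classic site where they act. Its sequence is shown because *Myog* was the myogenic factor with a measured ratio on every array, beside that of *Myf5*, which in the genome is the coding gene next to *Myf6* with 0 coding genes between them. Both are 300-base windows from RefSeq (GRCm38.p6), 250 bases before and 50 after the gene start, printed 5′ to 3′ on the gene's strand in lower case with E-boxes in capitals. The *Myog* window is chr1:134289754-134290053 (+ strand) and the *Myf5* window chr10:107486085-107486384 (- strand).
Myog promoter: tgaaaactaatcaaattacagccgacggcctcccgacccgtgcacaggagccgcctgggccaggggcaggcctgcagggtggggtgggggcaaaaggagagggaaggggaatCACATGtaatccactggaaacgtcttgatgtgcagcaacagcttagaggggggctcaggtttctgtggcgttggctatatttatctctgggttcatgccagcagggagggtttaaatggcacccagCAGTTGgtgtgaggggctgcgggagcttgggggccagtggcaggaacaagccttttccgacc
Myf5 promoter: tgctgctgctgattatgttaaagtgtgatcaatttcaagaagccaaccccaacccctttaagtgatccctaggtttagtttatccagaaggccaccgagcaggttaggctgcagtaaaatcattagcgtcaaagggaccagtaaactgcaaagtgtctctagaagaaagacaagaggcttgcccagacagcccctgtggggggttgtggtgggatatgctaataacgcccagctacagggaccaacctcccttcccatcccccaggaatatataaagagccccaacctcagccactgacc

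The *Myog* window held 2 E-boxes on a search of both strands, CACATG at -138 and CAGTTG at -12 from the gene start. The *Myf5* window held 0. Of 32544 RefSeq promoter windows of this length, 72.3% held CANNTG, so an E-box is the usual state of such a window. A match is a description of the letters only. Of the 10 members, 5 were in the promoter table.

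*Myog* read -0.15 on array 1, -0.12 on array 2, -1.30 on array 3 and -1.11 on array 4. All 4 values were negative, but those of the orientations did not overlap and lay far apart. The mean of -0.67 ± 0.63 (SD, n = 4), 1.59-fold lower in MM, was called with the orientation term (limma adjusted p = 0.0022) and not without it (adjusted p = 0.165, 95% interval -1.44 to 0.10). Within arrays 1 and 2 alone the value was -0.13 and did not pass (adjusted p = 0.124), and within arrays 3 and 4 alone it was -1.21 and did (adjusted p = 0.024).

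*Myod1* read 1.00 and -0.23 on arrays 1 and 2, which differ in sign, and both other arrays gave the floor. Its call as lower in MM (limma adjusted p = 0.00285) rests on those floor values and is no measured fold, and without the orientation term it was lost (adjusted p = 0.286). On arrays 1 and 2 alone its value was 0.38 and did not pass (adjusted p = 0.482). The same layout, measured on arrays 1 and 2 with both others at the floor, was found for 918 of all 22702 probes (4.04%).

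*Myf5* read 0.57 and 0.47 on arrays 1 and 2 and -0.15 on array 4, with no value on array 3. The orientations differed in sign, and in the fit of probes with 3 or more values its 0.19 did not pass (limma adjusted p = 0.0965, 95% interval -0.03 to 0.40). *Myf6* (Mrf4), the factor that persists in mature muscle, read 0.45 on array 1, 0.15 on array 2 and the floor on array 3, with no value on array 4. In that fit *Myf6* was called lower (limma adjusted p = 0.00445), which again rests on a floor value. On arrays 1 and 2 the neighbours *Myf5* and *Myf6* were thus both positive, while *Myog* was slightly negative.

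**Figure D2:**
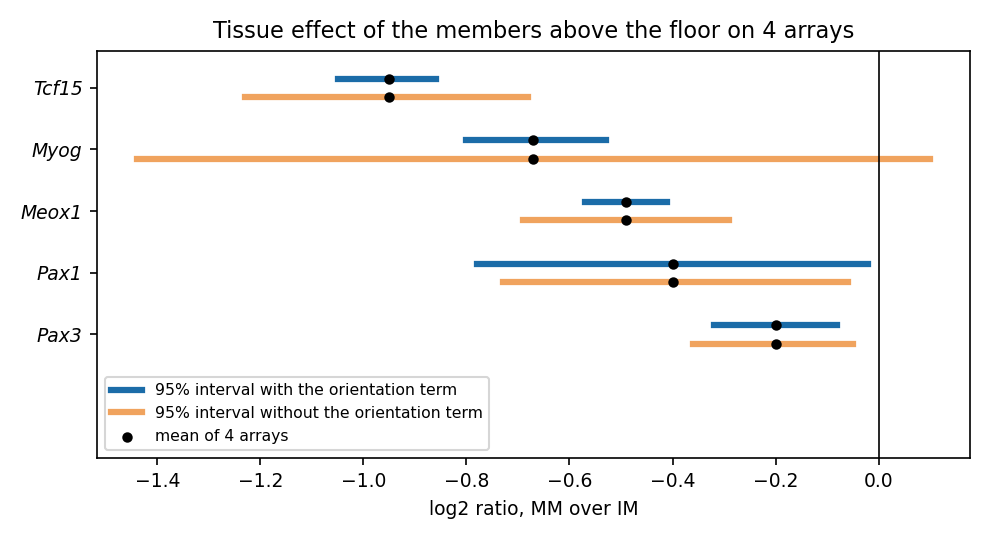
Mean log2 ratio of MM over IM (dots) for the 5 members above the floor on 4 arrays, with the 95% limma interval with the orientation term (blue, upper) and without it (orange, lower). The interval of Myog runs from -0.80 to -0.53 with the term and from -1.44 to 0.10 without it, whereas those of the other 4 members stay below 0 in both. The intervals are not adjusted for the number of probes. By adjusted p, Tcf15 and Meox1 passed in both fits, Pax3 with the term only and Pax1 in neither.

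Channel orientation moved with several of these ratios. The orientation term passed the threshold for 4 of 6 tested members, *Myod1*, *Myog*, *Tcf15* and *Meox1*, against 44.6% of all tested probes. Over the 13191 probes without a floor value (probes are no replicates), Pearson's r between orientations was 0.113 to 0.274, against 0.836 for the first pair of arrays and 0.912 for the second. With floor values it was -0.349 to -0.26 between orientations. The arrays held between 15812 (array 3) and 21599 (array 2) values, and all 10 members had a value on arrays 1 and 2 but 8 on each of arrays 3 and 4, of which 2 were at the floor on each. With each orientation averaged to 1 value, 0 members and 0 probes passed in limma, and 1 member and 1526 probes had an unadjusted p under 0.05.

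**Figure D3:**
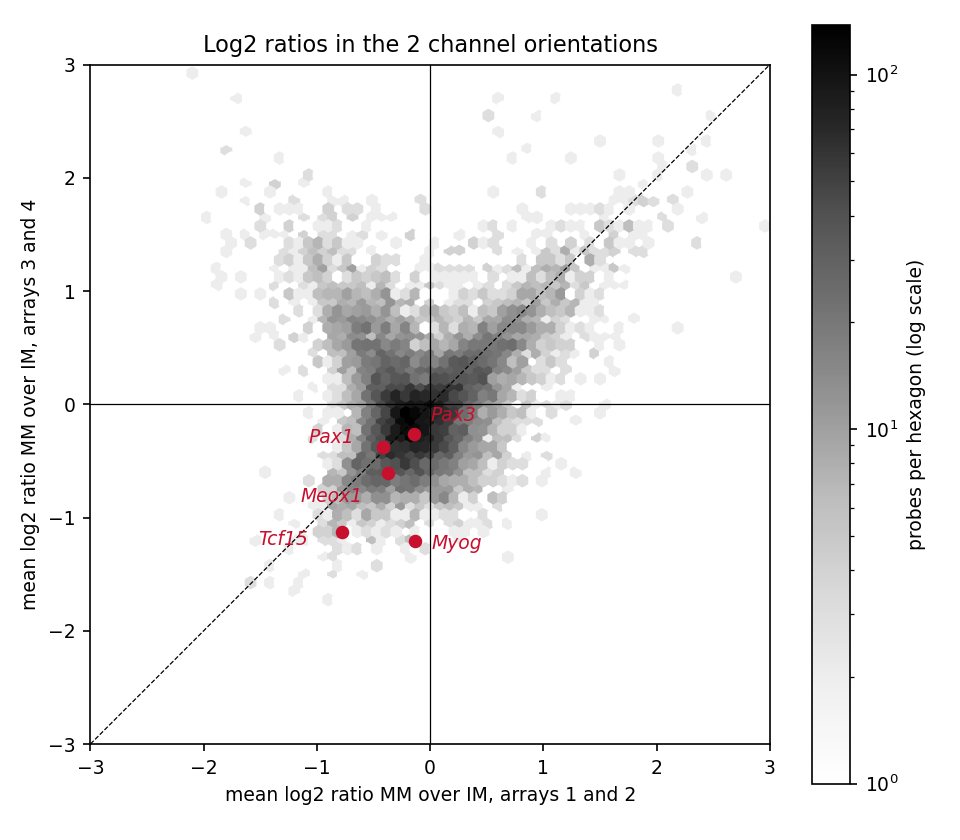
Mean log2 ratio of MM over IM on arrays 1 and 2 (horizontal axis) against arrays 3 and 4 (vertical axis) for the 13191 probes above the floor, as hexagons shaded by the number of probes, with the 5 members in red and equal values on the dashed line. The 5 members lie in the lower left quadrant, Myog farthest from the dashed line at -0.13 and -1.21, and a few probes fall outside the plotted range.

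The labelled tissues were checked against their defining genes. *Six2* (3.00 ± 0.63), *Gdnf* (1.92 ± 0.13), *Hoxa11* (1.92 ± 0.59) and *Osr1* (0.44 ± 0.17) of the metanephric mesenchyme list were higher in MM in both fits (SD, n = 4 arrays). *Osr1*, *Pax2* and *Wt1* also stand in the intermediate mesoderm and duct list, where *Osr1* was the 1 gene higher in MM. In the mesenchyme list *Hoxd11* (0.10 ± 0.37), *Eya1* (0.35 ± 0.72) and *Pax2* (0.09 ± 0.17) did not pass, *Wt1* was lower (-1.57 ± 0.02), *Itga8* read 3.67 on array 1 and 4.16 on array 2 and had floor values on the others, and *Sall1* had 3 values of which 1 was at the floor. Of the intermediate mesoderm and duct list, *Nr5a1* (-1.68 ± 0.22), *Wnt4* (-1.97 ± 0.22), *Cdh16* (-1.40 ± 0.05) and *Gata3* (-0.35 ± 0.04) were lower in MM in both fits and *Pax8* (-0.38 ± 0.22) with the orientation term. *Lhx1* (0.06 ± 0.68) did not pass, and *Ret* had values of 1.04 and 0.42 on arrays 1 and 2 alone.

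Genes of the earlier steps, segmentation and presomitic mesoderm, showed no common direction. Of 20 listed, 15 were tested, 3 were higher, 2 lower and 10 not called, with a median of -0.0595 against -0.0822 for all tested probes, of which 23.8% were higher and 38.1% lower. The Notch ligand *Dll1* (-0.91 ± 0.15), which marks presomitic mesoderm and the caudal part of each somite, and *Tbx18* (-0.86 ± 0.17, and -0.28 ± 0.13 by another probe), a factor of rostral somite and urogenital mesenchyme, were lower in both fits. With the arrays quantile normalized *Dll1* was not called (-1.58, adjusted p = 0.106) and *Tbx18* read -2.25. The receptor *Epha4* (1.29 ± 0.38, and 0.59 ± 0.14 by another probe) and the Notch target *Hes1* (0.37 ± 0.08) were higher in both. The clock gene *Hes7* (-0.12 ± 0.45) and *Mesp2* (0.07 ± 0.25), the factor of segment boundaries, did not pass.

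Sclerotome and early cartilage genes other than *Pax1* and *Pax9* were mostly not called. Of 15 listed, 11 were tested, 1 was higher, 3 lower and 7 not called (median -0.0618), so fewer of them were called than the 61.9% of all tested probes. *Zic1* (-1.05 ± 0.51), a zinc finger factor of dorsal neural tube and somite, and the cartilage collagen *Col2a1* (-0.22 ± 0.07) were lower in both fits, and the Hedgehog receptor *Ptch1* was higher (1.20 ± 0.05). *Sox9* (0.04 ± 0.31), the master factor of cartilage, did not pass. *Zic1* read -2.33 with quantile normalization, and *Col2a1* did not pass without array 3 (adjusted p = 0.055).

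Among dermomyotome genes and those of migrating muscle precursors, 10 of 20 were tested, with 3 higher, 4 lower and 3 not called (median -0.129), shares near the 23.8% higher and 38.1% lower of all tested probes. In both fits 2 were higher, the chemokine receptor *Cxcr4* (0.78 ± 0.02), and *Hgf* (0.22 ± 0.05), the ligand of the receptor *Met* on migrating precursors, and 0 were lower. *Hgf* did not pass without array 1 (adjusted p = 0.0538), array 2 (0.0588) or array 4 (0.0622). *Met* (-0.29 ± 0.25) was lower with the orientation term. *Lbx1*, the homeobox factor of these precursors, had 2.35 and 0.43 on arrays 1 and 2 alone and was not tested. The count of 4 lower was 2 without array 1 or with each array centred on its median, and 1 without array 3 or array 4.

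The partners and inhibitors of the myogenic factors went both ways. Of 25 listed, 16 were tested, 4 were higher, 7 lower (1 of them on floor values) and 5 not called (median -0.12), again near the shares of all tested probes (23.8% higher and 38.1% lower). In both fits 3 were higher and 1 lower. The E proteins with which myogenic factors pair differed from each other. *Tcf12* (1.18 ± 0.09) and *Tcf3* (0.98 ± 0.13) were higher in MM in both fits, and *Tcf4* was lower by 1 probe (-1.02 ± 0.20) with its other probe at 0.15 ± 0.17 (adjusted p = 0.0926). The lower *Tcf4* probe was not called with quantile normalization (-1.67, adjusted p = 0.0954). *Id2*, an inhibitor of such pairs, was higher (0.29 ± 0.08) but not without array 3 (adjusted p = 0.0611) or array 4 (0.0528), and *Mef2c*, a partner of myogenic factors in differentiation, was lower with the orientation term (-0.20 ± 0.08). The count of 7 lower was 4 without array 1 or array 2 and 2 without array 3 or array 4, and 4 with arrays centred or quantile normalized.

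Most tested genes of skeletal muscle differentiation, many of them targets of the myogenic factors, were lower in MM. Of 34 listed, 20 were tested, and 14 were lower (2 of them on floor values), 3 higher, 1 of both directions and 2 not called, with 11 lower and 2 higher in both fits, against 38.1% of all tested probes lower and 14.4% lower in both fits. Their median was -1.01, and -0.876 for the 18 above the floor. The 2 lower on floor values, *Tnnc2* (1.69 and 2.52) and *Musk* (1.56 and 0.57), were positive on arrays 1 and 2. Among untested genes, *Actc1* (3.49 and 4.22), *Tnni2* (2.26 and 0.56), *Mybph* (1.61 and 0.89), *Ckm* (1.02 and 0.59) and *Chrng* (0.48 and 0.19) were positive on those arrays. *Myoz2* (-0.92 and -1.08) and *Myom2* (-1.75 and -0.59) were negative there. *Myl4* (-1.02 and 2.78), *Ldb3* (-0.07 and 0.57) and *Myom1* (0.77 and -0.30) differed in sign, and *Chrnd* read 0.00 and 0.46. *Myl1* (-2.57 ± 0.26), the fast troponin *Tnnt3* (-1.67 ± 0.46), *Tnnt2* (-1.44 ± 0.48) and *Tnni1* (-1.34 ± 0.33) were the lower genes of smallest p, and *Tnnt1* (-2.03 ± 0.36) and *Tnnc1* (-1.49 ± 0.20) were also low. With quantile normalization, which carries floor values into the low end of every array, *Tnnt3* read -2.74, *Tnnt2* -2.59 and *Tnni1* -2.54. These are no measured folds. *Cdh15*, the M-cadherin of muscle precursors, was at -1.37 ± 0.54 (adjusted p = 0.00261), and *Mylpf* (1.11 ± 0.08) and *Des* (0.97 ± 0.13) were higher. The difference between these genes and the myogenic factors was not tested.

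**Figure D4:**
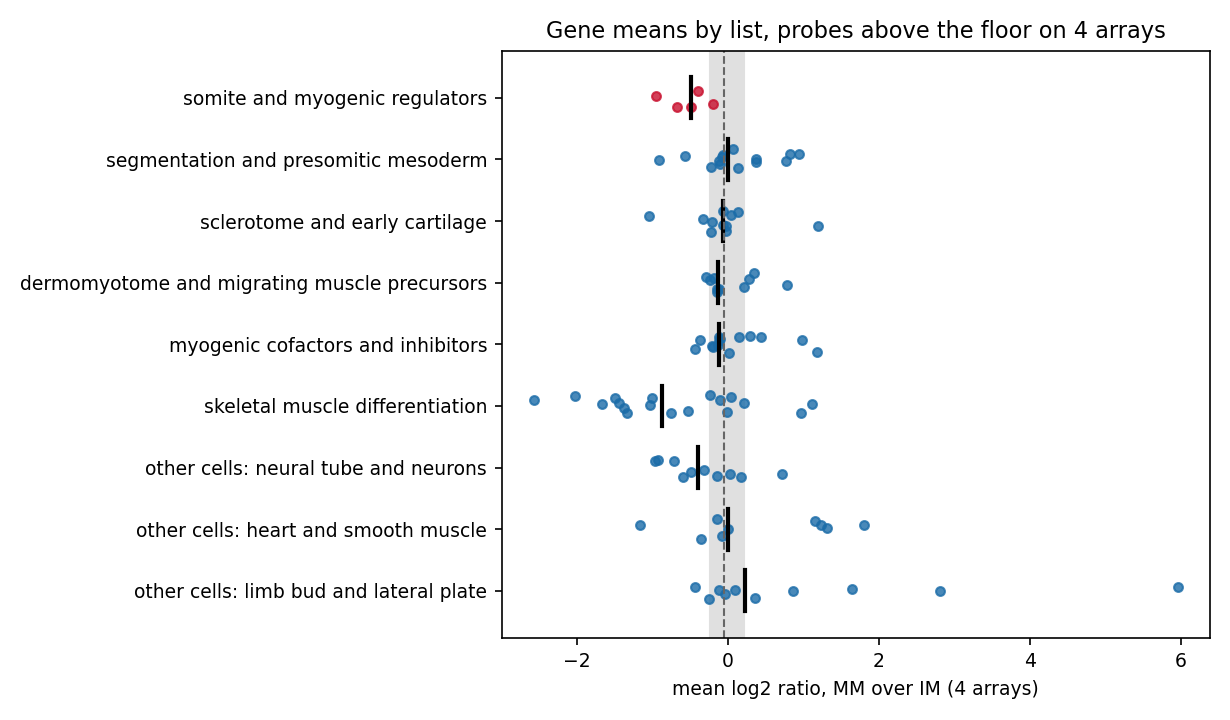
Mean log2 ratio of MM over IM over 4 arrays for each gene (dots, probes above the floor, several probes of a gene averaged) in the 5 measured members (red) and in 8 gene lists (blue), with list medians as black bars, the middle 50% of all such probes shaded and their median dashed. The members' median is -0.487 and that of the skeletal muscle differentiation list -0.876, while the segmentation list lies at 0.0046.

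Among genes of tissues that lie near the somites, those of neural tube and neurons were lower in MM more than higher. Of 10 tested genes of neural tube and neurons (16 listed), 7 were lower and 2 higher in MM (5 and 1 in both fits), with a median of -0.401. Of all tested probes, 38.1% were lower and 23.8% higher (14.4% and 13.6% in both fits). The 7 lower fell to 4 without array 1 or array 2, and the 2 higher to 1 without array 2, 3 or 4. *Sox2* (-0.93 ± 0.04), *Elavl4* (-0.97 ± 0.40), *Dcx* (-0.71 ± 0.19) and *Tubb3* (-0.49 ± 0.09) were lower, and 1 probe of *Pax6* was higher (1.58 ± 0.78). *Sox2* read -2.30 with quantile normalization, and *Dcx* did not pass without array 1 (adjusted p = 0.0595) or array 2 (0.0506). Of 9 tested heart and smooth muscle genes, 4 were higher and 3 lower (3 and 2 in both fits, median 0.0044), with *Tbx5* (1.81 ± 0.94), *Nkx2-5* (1.32 ± 0.45) and *Myh11* (1.16 ± 0.13) higher and *Tagln* (-1.17 ± 0.35) and *Tbx20* (-0.36 ± 0.15) lower. *Tbx5* did not pass without array 1 (adjusted p = 0.124) or array 2 (0.16), nor *Tagln* with quantile normalization (-1.81, adjusted p = 0.0606). Of 10 tested limb bud and lateral plate genes, 5 were higher and 2 lower (4 and 2 in both fits, median 0.228), led by *Hoxd13* (5.96 ± 1.14) and *Shh* (2.81 ± 1.44), with *Prrx1* (0.86 ± 0.39) and *Pitx1* (0.36 ± 0.07) also higher and *Irx3* (-0.44 ± 0.07) and *Prrx2* (-0.25 ± 0.07) lower. Here 3 were higher without array 1, and 1 was lower without array 3 or array 4, where *Prrx2* did not pass (adjusted p = 0.0724 and 0.0665). *Pitx1* did not pass without array 1 (adjusted p = 0.0534) or array 2 (0.0562). In all, 7 of 9 heart and smooth muscle genes and 7 of 10 limb genes were called, beside 61.9% of all tested probes. The part of these tissues in the ratios of the somite and myogenic regulators was not tested.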

How the data were processed

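Per the labels, Imagene 5.5 read the spots, the authors exchanged signal and control on arrays 3 and 4 to undo the dye swap, adjusted the control value by lowess with 20.0% of the data per point, and raised control values below 10 to that value. The deposited table gives a log2 ratio per probe and array, without intensities. Base 2 was inferred from the floor shared by all arrays, log2 of 0.01. How background and poor spots were handled is not given in the sources used here.

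Log2 ratios of probes with a value on all 4 arrays were fitted in R 4.3.3 with limma 3.58.1; the model held the tissue effect as intercept and an orientation term. P-values were adjusted by Benjamini-Hochberg over 14184 probes. The residual of this fit comes from pairs of arrays of the same orientation, so the fit without the term stands beside it. Values within 1e-04 of log2 0.01 were called floor. Gene symbols came from the platform annotation, updated by Entrez identifier through RefSeq (GRCm38.p6, 16566 of 17252 probes with 1 symbol matched). Each probe was tested on its own; for lists, a gene was called from any of its probes and its tested probes were averaged for medians. Named list genes were up to 4 per direction and list of smallest p, called in both fits, with 1 sign on all arrays and no floor value, and all genes of the lists that check the labels; other genes named were chosen after their values were seen. The members and lists were chosen with earlier results of these data known. The fit was tested on simulated arrays with the orientation effects of the data and independent spread within orientations. A log2 change of 0.5 was recovered for 51.5% of changed probes with the orientation term and 1.5% without it. For a change of 2.0 these were 86.4% and 57.6%. Shared RNA extracts were not simulated, so this cannot show whether the p-values hold in that case. Alternatives are listed in the closing section.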

Additional observations from a re-analysis of the deposited data

Results flagged for a closer look

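The orientations differed for 4 of 6 tested members by the orientation term of limma, against 44.6% of all tested probes. The limma adjusted p of the term was 0.0061 for *Myod1*, 0.00842 for *Myog*, 0.0295 for *Tcf15* and 0.0417 for *Meox1*. For *Myog*, *Tcf15* and *Meox1* the ratio of MM over IM was more negative on arrays 3 and 4, and for *Myod1* those arrays were at the floor. In *Hoxd13*, array 2 (7.67) stood apart from the other 3 arrays, with a gap of 0.884 of the range, among 41 probes examined. Chance gives about 1 such gap in 20 probes.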

How the results depend on the processing

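Of 14184 probes, 8779 were called, of the members 5 and of the list genes 68. Without the orientation term the counts were 3968, 2 and 43, and with each orientation averaged to 1 value 0, 0 and 0. On arrays 1 and 2 alone 5614 probes and 3 members were called. Leaving out 1 array gave 5808 to 6782 probes, the fewest without array 3 (5808) and array 4 (5848), 4 to 5 members and 50 to 58 list genes. *Myod1* changed sign on arrays 1 and 2 alone, at 0.38. Floor values set to missing, arrays centred on their medians, quantile normalization, probes with 3 or more values and arrays 3 and 4 alone kept all 3 counts within 1.5 times, and quantile normalization took *Tcf15*, *Dll1*, *Tcf4* and *Tagln* out of the calls. Floor values numbered 16 on array 1 and 8 on array 2, against 1672 on array 3 and 1805 on array 4. They enter the low end of every array under quantile normalization. The causes were not tested. For *Meox1*, 11 of 12 alternatives passed (adjusted p = 0.00114 to 0.494), for *Tcf15* 10 of 12 (0.000584 to 0.461), for *Myog* 9 of 12 (0.00151 to 0.636), for *Pax3* 7 of 12 (0.0176 to 0.66), for *Pax1* 2 of 12 (0.0231 to 0.498) and for *Myod1* 8 of 11 (0.000357 to 0.7). The averaged setting has 1 value per orientation, so its lack of calls cannot decide whether the calls are stable. All alternatives reuse the same 4 arrays, so the counts that passed are no independent support. Signal over background is unknown, which limits what can be said of floor and missing values.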
